A study of Mus musculus with 18 samples.

Results

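The comparison set mouse embryonic stem cells that lack 2 opposing regulators of histone H2A ubiquitination, RNF2 and BAP1, against wild-type cells. Members were chosen by their labels: 3 RNA-seq libraries from the double knockout line after 4 days with 100 nM 4-hydroxytamoxifen (4-OHT), and 3 from the line labelled BAP1 wild type (WT) at day 4, so 6 of the 18 libraries of the series and all 36528 genes of each file. The other 12 libraries are a conditional BAP1 knockout line and a line with an inducible C91A mutant of BAP1, each without and with 4-OHT for 4 days, 3 libraries a group. 4-OHT was given to induce Cre-mediated recombination, and all cells, WT included, received emricasan, a caspase inhibitor, to keep them alive after loss of BAP1. Details on whether WT cells carried the Cre or received 4-OHT are not given in the sources used here, and an untreated parent of the double knockout line was not analysed here, so genotype, line, drug and recombinase cannot be told apart in this contrast. The labels do not say that the 3 libraries of a group came from separate cultures, and the p-values measure only the spread between these libraries.

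RNF2 (also called RING1B) is a catalytic subunit of Polycomb repressive complex 1 (PRC1), which attaches ubiquitin to histone H2A. BAP1 works with ASXL partners as a deubiquitinase that removes this ubiquitin. In embryonic stem cells PRC1 and its partner complex PRC2, which methylates histone H3, keep developmental regulators such as the HOX genes silent, and a PRC1 variant built on PCGF6 keeps germline genes silent. RING1, the paralog of RNF2, can take its place in PRC1.

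The targeted genes were read first. Levels are given as CPM, counts per 1e+06 of the library total after scaling between libraries. Rnf2 stood at 122, 107 and 115 CPM in the 3 WT libraries. In the 3 double knockout libraries it stood at 77.4, 75.6 and 70.6 CPM. All 3 double knockout libraries were below all 9 untreated libraries of the series, and Rnf2 was lower by edgeR's quasi-likelihood test (log2 fold change -0.63, SE 0.06, adjusted p = 6.1e-12). Each adjusted p given here comes from this edgeR test, with adjustment after Benjamini and Hochberg over all tested genes. Bap1 stood at 171, 183 and 182 CPM in WT and at 139, 161 and 158 CPM in the double knockout. The groups did not overlap, but the change was small (log2 fold change -0.22, SE 0.05, adjusted p = 0.00011). Counts cover whole gene models, and the exons removed are not given in the sources used here, so a shortened transcript would still be counted and these levels do not measure the protein. Ring1, which was not targeted, stood at 15.2, 16.6 and 15.1 CPM in WT and at 19.3, 20.5 and 18.1 CPM in the double knockout (log2 fold change 0.30, SE 0.09, adjusted p = 0.0054). Ring1 did not leave the untreated range, with a mean of 18.8 CPM in the untreated conditional knockout line. Library totals were 18177207, 22252157 and 20855020 counts in WT and 14231467, 13042515 and 23039407 counts in the double knockout. Over these unscaled totals, a count of 0 allowed up to 0.165 CPM in the shallowest WT library. In the shallowest double knockout library it allowed up to 0.230 CPM. These limits, like the counting intervals given further on, cover counting error only.

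Of 10 markers of embryonic stem cells, 6 were higher, 2 were lower and 2 were not called. Among all tested genes 26.2% were higher and 27.1% lower. Pou5f1, which encodes the pluripotency factor OCT4, stood at 941, 1057 and 982 CPM in WT and 923, 1058 and 961 CPM in the double knockout and was not called different (log2 fold change -0.02, adjusted p = 0.78). Utf1, a chromatin factor of pluripotent cells, was lower, at 584, 663 and 602 CPM in WT and 324, 366 and 342 CPM in the double knockout (-0.84, adjusted p = 7.9e-18), below all 9 untreated libraries, and Tdgf1 was lower by 0.16. The 10 markers summed to 3961 to 4159 CPM in WT and 4528 to 4746 CPM in the double knockout. WT was the group that stood apart on chromosome 8. Genes of that chromosome held 6.13%, 6.24% and 6.27% of WT counts, 5.16%, 5.24% and 5.22% of double knockout counts, and between 5.07% and 5.78% in the 12 other libraries. The median log2 fold change over its 859 tested genes was -0.25, against medians from -0.04 to 0.06 on the X chromosome and the other autosomes. Chromosome number was not measured, and its part in results on chromosome 8 genes was not tested; the genes of that chromosome named as higher or lower are marked below.

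**Figure D1:**
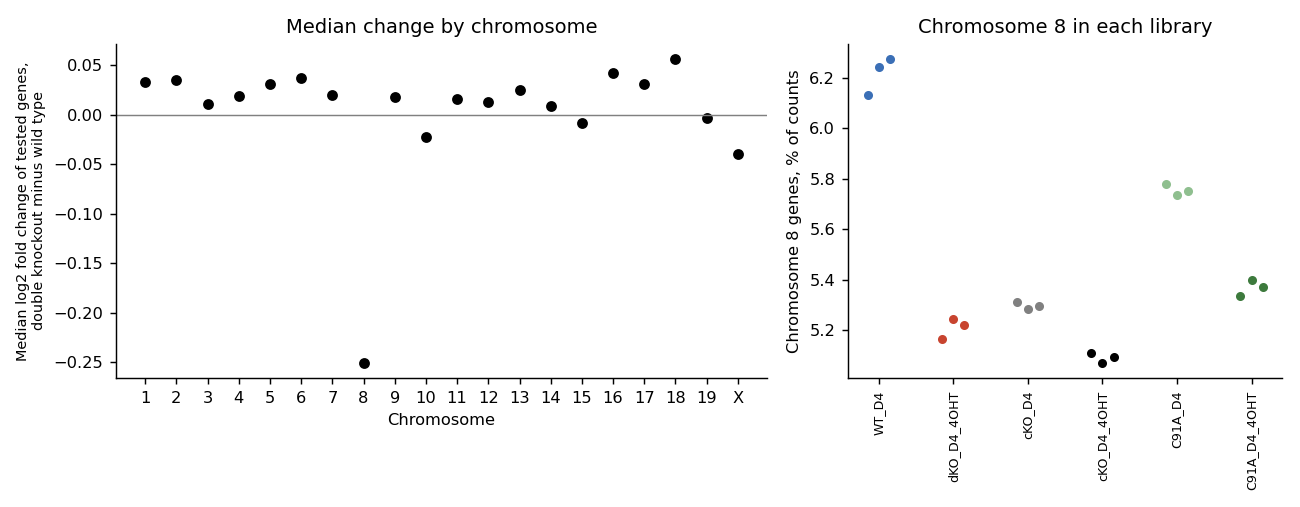
Left, median log2 fold change (double knockout over WT) of the tested genes of each chromosome; right, percent of a library's counts that fell on chromosome 8 genes, 1 point a library in 6 groups. Chromosome 8 is the one autosome with a median far from 0 (-0.25), and the 3 WT libraries (6.13% to 6.27%) sit above the other 15.

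Over the genome, changes were many and mostly small, and the large ones were mainly gains of rarely transcribed genes. Of 16875 genes tested, 8990 (53.3%) differed at an adjusted p under 0.05, 4422 (26.2%) higher and 4568 (27.1%) lower in the double knockout. By at least 2-fold, 1553 (9.2%) differed, 1079 (6.39%) higher and 474 (2.81%) lower, and by at least 4-fold, 347 (2.06%) were higher and 42 (0.249%) lower. The median change over all tested genes was 0.01 on the log2 scale. Among the 1079 genes at least 2-fold higher, the median level went from 0.713 CPM in WT to 2.45 CPM, and 643 had a WT mean under 1 CPM. The 474 genes at least 2-fold lower went from a median of 5.37 CPM to 2.17 CPM. The filter on low counts bears on this asymmetry: 356 tested genes passed it only through the double knockout libraries, and among the 16519 tested genes that passed without them, 863 (5.22%) were at least 2-fold higher and 474 (2.87%) lower.

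Because WT is a separate line, the double knockout was also set against all 9 untreated libraries. Of the genes at least 2-fold higher, 774 (71.7%) had every double knockout library above every untreated library of the 3 lines, and of those at least 2-fold lower, 273 (57.6%) had every one below. Among all tested genes, 2164 (12.8%) lay above and 2165 (12.8%) below in this way. These are not like baselines, since the 2-fold rule largely fixed the order against the 3 WT libraries. For genes that passed the filter only through the double knockout, low levels in the other libraries were fixed too. The count of 774 depended on depth and fell to 488 when all libraries were thinned to the smallest total. Without chromosome 8, an alternative chosen after the data were seen, 1044 genes were at least 2-fold higher and 430 lower.

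The 10 highest genes with a mean log2 CPM of 2 or more over the 18 libraries and no overlap between the groups were then read. Nnat, an imprinted gene that encodes the small membrane protein neuronatin, stood at 1.21, 1.17 and 0.858 CPM in WT and at 47.5, 45.6 and 45.1 CPM in the double knockout, the largest change by this rule (log2 fold change 5.41, SE 0.12, adjusted p = 1.0e-32). WT was low among untreated lines, since Nnat averaged 24.3 CPM in the untreated conditional knockout line and 11.5 CPM in the untreated C91A line, but the double knockout lay above all of them. Tex13b, a testis-expressed gene on the X chromosome, stood at 0.770, 1.40 and 1.62 CPM in WT and at 28.4, 26.3 and 33.1 CPM in the double knockout (log2 fold change 4.51, SE 0.15), again above all 9 untreated libraries. Others among the 10 highest included Fkbp6 (4.15) and Stra8 (3.64), both needed for meiosis, the growth factor gene Fgf1 (4.33), the membrane protein gene Megf11 (4.22), the HOX gene Hoxc13 (3.47) and 1 gene without a name (4.33). Calcoco2, which encodes an autophagy receptor, rose from 1.21, 1.67 and 0.762 to 29.2, 26.0 and 29.5 CPM (4.53). Unlike most of the others, Calcoco2 did not leave the untreated range, with a mean of 25.8 CPM in the untreated C91A line.

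The 10 lowest were taken by the same rule, which leaves out rarely transcribed genes such as Plac1 (-2.67). The lowest of them, Myl3, a myosin light chain of heart and slow muscle, stood at 10.2, 9.25 and 6.86 CPM in WT and at 0.785, 0.794 and 0.817 CPM in the double knockout (log2 fold change -3.43, SE 0.20, adjusted p = 2.7e-18). Every double knockout library was below all 9 untreated ones. Enpp2, which encodes the secreted phospholipase autotaxin, went from 24.6, 24.3 and 23.1 CPM to 3.40, 4.69 and 3.06 CPM (-2.73). Hrc, a calcium-binding protein gene of muscle, changed by -2.42, the Notch ligand gene Dll3 by -2.11, the ectonucleotidase gene Entpd2 by -2.17, Acap1 by -2.39, and Plvap, an endothelial gene on chromosome 8, by -2.59. Acap1 did not leave the untreated range, with a mean of 2.16 CPM in the untreated conditional knockout line. H2-K2, annotated as a transcribed pseudogene of the class I histocompatibility family, whose reads may be split among close relatives, changed by -2.53. For Wdfy1 it was WT that differed from every other group. Wdfy1, a gene of endosomal signalling, stood at 71.5, 65.4 and 73.5 CPM in WT and at 12.9, 15.7 and 14.9 CPM in the double knockout (-2.27), against means of 13.2 to 20 CPM in the other 4 groups. H19, an imprinted noncoding RNA that contains the microRNA gene Mir675 (-2.0), stood at 280, 289 and 307 CPM in WT. It stood at 71.9, 82.9 and 69.4 CPM in the double knockout (-1.97), while the untreated conditional knockout line averaged 42.1 CPM. Mir675 was highest in WT (mean 17.6 CPM) but spread among the other groups. Its means were 10.5 CPM in the C91A line with 4-OHT, 6.19 CPM without, and 2.78 CPM in the untreated conditional knockout line.

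The promoter windows of the 2 highest and 2 lowest of these genes with a protein-coding entry in the RefSeq promoter table are printed because CpG content, a known correlate of Polycomb binding, differed among the groups described here. Each window holds 250 bases before and 50 after the annotated start on GRCm38.p6, 5′ to 3′ on the gene's strand, with CG in capitals. Nnat lies at chr2:157559828-157560127 (plus strand, 17 CG), Tex13b at chrX:140813384-140813683 (minus strand, 13 CG), Myl3 at chr9:110763428-110763727 (plus strand, 1 CG) and Hrc at chr7:45335019-45335318 (plus strand, 3 CG).
Nnat: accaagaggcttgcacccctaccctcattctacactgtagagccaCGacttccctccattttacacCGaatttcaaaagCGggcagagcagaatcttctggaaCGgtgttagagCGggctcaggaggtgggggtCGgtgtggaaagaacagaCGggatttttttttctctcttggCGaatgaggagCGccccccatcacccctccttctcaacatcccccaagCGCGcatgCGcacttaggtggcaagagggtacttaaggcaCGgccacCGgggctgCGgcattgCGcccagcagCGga
Tex13b: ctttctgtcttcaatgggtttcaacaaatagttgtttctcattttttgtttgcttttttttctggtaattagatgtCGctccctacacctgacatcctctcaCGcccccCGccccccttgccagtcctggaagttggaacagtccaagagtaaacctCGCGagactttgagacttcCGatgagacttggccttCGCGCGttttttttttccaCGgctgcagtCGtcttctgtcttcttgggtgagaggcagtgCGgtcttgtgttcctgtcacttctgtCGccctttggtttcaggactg
Myl3: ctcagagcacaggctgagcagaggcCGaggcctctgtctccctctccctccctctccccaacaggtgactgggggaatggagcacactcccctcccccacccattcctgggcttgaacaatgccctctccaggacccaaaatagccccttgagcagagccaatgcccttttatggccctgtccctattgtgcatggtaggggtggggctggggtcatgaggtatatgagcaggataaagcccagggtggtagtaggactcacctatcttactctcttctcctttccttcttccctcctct
Hrc: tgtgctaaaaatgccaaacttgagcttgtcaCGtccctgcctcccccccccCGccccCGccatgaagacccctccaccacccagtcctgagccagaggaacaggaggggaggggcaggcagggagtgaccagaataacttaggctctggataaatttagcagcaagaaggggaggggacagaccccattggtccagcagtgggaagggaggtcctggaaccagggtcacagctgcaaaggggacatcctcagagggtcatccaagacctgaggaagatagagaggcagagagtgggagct
Both windows of the higher genes held more CG pairs than both windows of the lower genes. A gene was counted as CpG-rich when the highest GC of its windows was at least 50% and their highest observed over expected CpG ratio at least 0.6. Over genes with a window, however, 44.2% of those at least 2-fold higher were CpG-rich. The share was 36.3% among those at least 2-fold lower and 68.2% among all tested genes. It was 36.3% among tested genes with a WT mean under 1 CPM, the range from which most of the higher genes came. Windows were found for 12307 of the 16875 tested genes.

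The HOX genes, transcription factors that set position along the body axis and classical Polycomb targets, were higher across all 4 clusters. Over all 39 genes found in the files, 38 (97.4%) had every double knockout library above every WT library, against 20.1% of the 27292 genes with any count, and none had every library below (background 18.8%). The exception, Hoxa6, and 3 others (Hoxa2, Hoxd3 and Hoxd12) were too low to be tested, at 0.654 CPM or less in every library. Of the 35 tested genes, 19 passed the filter only through the double knockout and so had to differ. All 16 that passed without it were at least 2-fold higher, with a median log2 fold change of 3.13, against 25.5% of such genes called higher overall. The summed level of all 39 genes went from between 15.4 and 17.3 CPM in WT to between 139 and 150 CPM. The double knockout lay above all 9 untreated libraries in 34 of the 35, Hoxb3 being the exception, against 12.8% of all tested genes. For the 19 that passed only through the double knockout, this was largely fixed by the filter.

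Single HOX genes differed widely in size of change. Hoxb13, the most posterior gene of its cluster, stood at 0.385, 0.451 and 0.191 CPM in WT and at 16.3, 16.0 and 15.2 CPM in the double knockout (5.50, SE 0.24, adjusted p = 3.7e-22). Hoxd13, which patterns digits, went from 0.605, 0.361 and 0.953 to 9.61, 6.79 and 7.6 CPM (3.64, SE 0.25). In both genes the double knockout libraries lay far above the WT libraries with no overlap. Hoxb9 went from 0.660, 0.948 and 1.0 to 8.63, 7.94 and 8.79 CPM (3.26), and Hoxc12 from 0, 0.135 and 0.0953 to 4.58, 4.91 and 6.86 CPM (5.97, SE 0.41). Others were at or near 0 in WT. Hoxa13 had no count in the 3 WT libraries and 70 in the double knockout, at least 26.7-fold higher against a floor of 3 counts over the group, and Hoxc11 had 0 against 51, at least 19.4-fold higher. Hoxc8 had 1 count against 63, a ratio of 72.1 with a 95% counting interval from 12.5 to 2891. Hoxc12, Hoxa13, Hoxc11 and Hoxc8 stood at 0.475 CPM or less in every library outside the double knockout. They passed the filter only through the double knockout and so had to differ, and their values are a description.

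**Figure D2:**
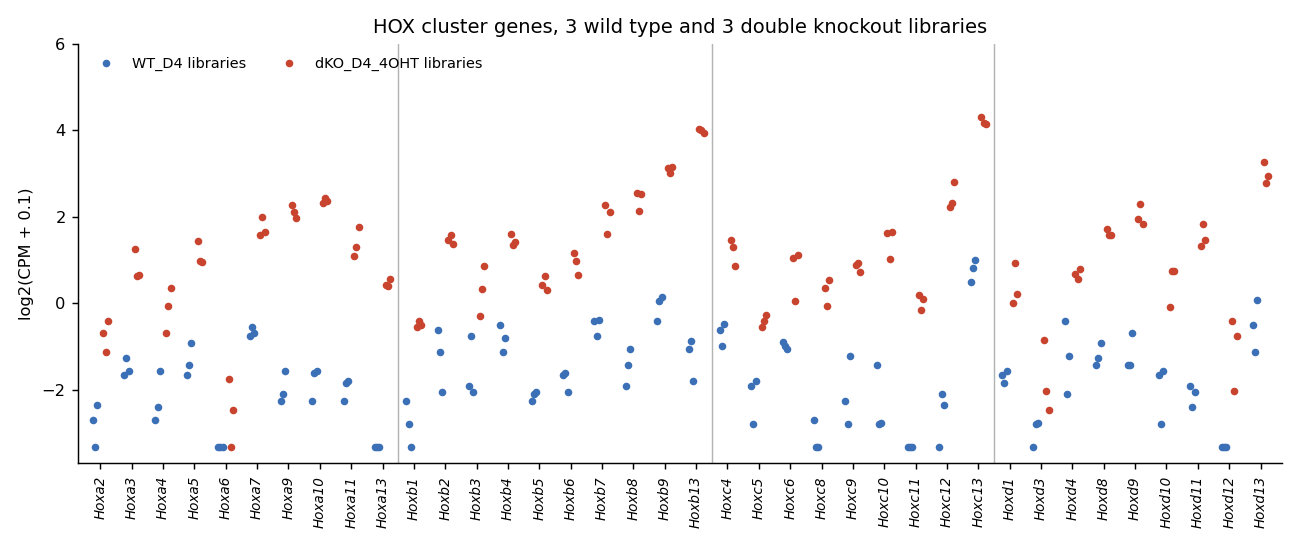
Level of the HOX genes reported here as log2(CPM + 0.1) in the 3 WT (blue) and 3 double knockout (red) libraries, 1 point a library, clusters separated by vertical lines. Hoxa6 is the one plotted gene in which red and blue points overlap.

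For HOX genes that passed the filter without the double knockout, the rise was larger than the change after loss of BAP1 alone. The conditional BAP1 knockout with 4-OHT was set against the same line without it. This contrast, called loss of BAP1 alone here, also differs in 4-OHT, so genotype, drug and recombinase cannot be told apart in it. There 9 of all 35 tested HOX genes were higher and 2 lower, with a median of 0.22 (background 31.3% and 30.3% of tested genes). Of these 35, 19 passed the filter only through the double knockout, so low counts in the other groups were fixed by their selection. The difference of the 2 effects, (double knockout minus WT) minus (conditional knockout minus its untreated line), was tested for each gene in the same fit and was positive for all 16 genes that passed the filter without the double knockout libraries, where 29.2% of all such genes were positive. Hoxc5 was one that moved in both, at 2.96 in the conditional knockout with a difference of -0.67 that was not called. Hoxb8 changed by 2.13 in the conditional knockout and its difference was 2.10. Strand was not marked by the library kit, so reads of HOX genes and of the antisense RNAs of their clusters cannot be told apart.

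To show a HOX promoter beside one of the 2-cell-like genes described next, Hoxa13 (chr6:52260831-52261130, minus strand, 45 CG) and Zscan4d (chr7:11166099-11166398, minus strand, 3 CG) are printed, both chosen after their values were seen, with CG in capitals.
Hoxa13: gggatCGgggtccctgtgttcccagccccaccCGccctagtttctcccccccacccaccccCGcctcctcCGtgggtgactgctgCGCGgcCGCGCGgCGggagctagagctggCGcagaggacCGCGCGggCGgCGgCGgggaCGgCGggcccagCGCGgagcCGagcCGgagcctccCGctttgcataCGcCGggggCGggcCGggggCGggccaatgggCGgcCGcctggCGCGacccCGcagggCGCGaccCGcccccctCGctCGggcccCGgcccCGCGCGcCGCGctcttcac
Zscan4d: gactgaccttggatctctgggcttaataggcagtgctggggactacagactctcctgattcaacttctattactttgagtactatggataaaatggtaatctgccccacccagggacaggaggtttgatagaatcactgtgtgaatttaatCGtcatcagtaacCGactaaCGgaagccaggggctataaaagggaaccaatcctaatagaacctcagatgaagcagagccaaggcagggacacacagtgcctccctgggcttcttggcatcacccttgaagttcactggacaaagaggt
The Hoxa13 window was 81.0% GC and the Zscan4d window 47.7%. Among tested HOX genes with a window, 9 of 18 were CpG-rich, and among tested 2-cell-like genes none of 9.

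Genes of the 2-cell-like state, a transcriptional programme of the early embryo that a few stem cells enter at any time, were also higher. Of 16 such genes found, 14 (87.5%) had all double knockout libraries above all WT libraries and none had all below. Among all genes with a count these shares were 20.1% and 18.8%. All 13 tested were called higher and lay above the 9 untreated libraries, but 12 of these passed the filter only through the double knockout and so had to differ; the remaining one, Usp17le, stood at 0.550, 0.451 and 0.524 CPM in WT and at 7.72, 5.71 and 8.09 CPM in the double knockout (log2 fold change 3.82, SE 0.29, adjusted p = 7.5e-15). Zscan4d, a telomere-linked marker of the state, went from 0.220, 0.0903 and 0.0953 to 4.38, 3.32 and 3.47 CPM (4.75, SE 0.38). Zfp352, a zinc finger gene of the early embryo, went from 0.0550, 0.0903 and 0.238 to 5.17, 4.26 and 5.64 CPM. Duxf3, which encodes the DUX factor that activates this programme, had 1 count over the WT libraries and 86 over the double knockout libraries, a ratio of 98.4 (95% counting interval 17.2 to 3930). Levels stayed low, and the 16 genes found summed to 42.4 to 45.6 CPM in the double knockout against 2.20 to 2.72 CPM in WT. Bulk RNA does not show whether a few cells or all cells carried these transcripts. Several of these genes (Zscan4, Usp17l and Tdpoz members) have near-identical copies, and since only uniquely aligned reads were counted, the level of each copy is uncertain. After loss of BAP1 alone the median change of the 13 tested genes was 0.62. Low counts outside the double knockout were fixed by selection for 12 of them.

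Germline genes were higher from measurable WT levels. Of 24 tested, none of which depended on the double knockout libraries to pass the filter, 19 were higher, 14 of them at least 2-fold, and 2 were lower (median 1.31), against 26.2% higher and 27.1% lower among all tested genes. The 25 germline genes found summed to 386 to 412 CPM in WT and 888 to 994 CPM in the double knockout. Dazl, an RNA-binding protein that germ cells need, stood at 7.75, 6.46 and 6.72 CPM in WT and at 73.6, 60.8 and 66.0 CPM in the double knockout (log2 fold change 3.27, SE 0.09, adjusted p = 1.2e-28). Stra8, the gatekeeper of meiotic entry, went from 4.51, 4.42 and 4.62 to 61.3, 53.8 and 54.1 CPM (3.64, SE 0.10, adjusted p = 3.2e-29). Neither gene showed any overlap between groups. Sycp1, a component of the synaptonemal complex, went from 2.47, 1.94 and 2.43 to 26.9, 21.3 and 18.9 CPM (3.29, SE 0.16), and Taf7l, a germ cell form of a general transcription factor subunit, from 5.66, 6.46 and 7.05 to 48.3, 41.3 and 39.8 CPM (2.74, SE 0.11). Mael (2.45), Piwil2 (1.02) and Ddx4 (0.84), which act in piRNA-based transposon control, were higher as well. Tdrd1 (-0.33) and Bhmg1 (-0.73) were lower, and Sycp3, Zfp600 and Tex15 (on chromosome 8) were not called.

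In the germline list the double knockout and the single knockout went apart. After loss of BAP1 alone, 2 of the 24 genes were higher and 18 lower (median -0.92), against 31.3% and 30.3% of all tested genes. The difference of effects was positive for 22, against 29.7% of all tested genes. Stra8 had a difference of 5.0. Taf7l was one of the few that rose in both, by 1.03 after loss of BAP1 alone.

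**Figure D3:**
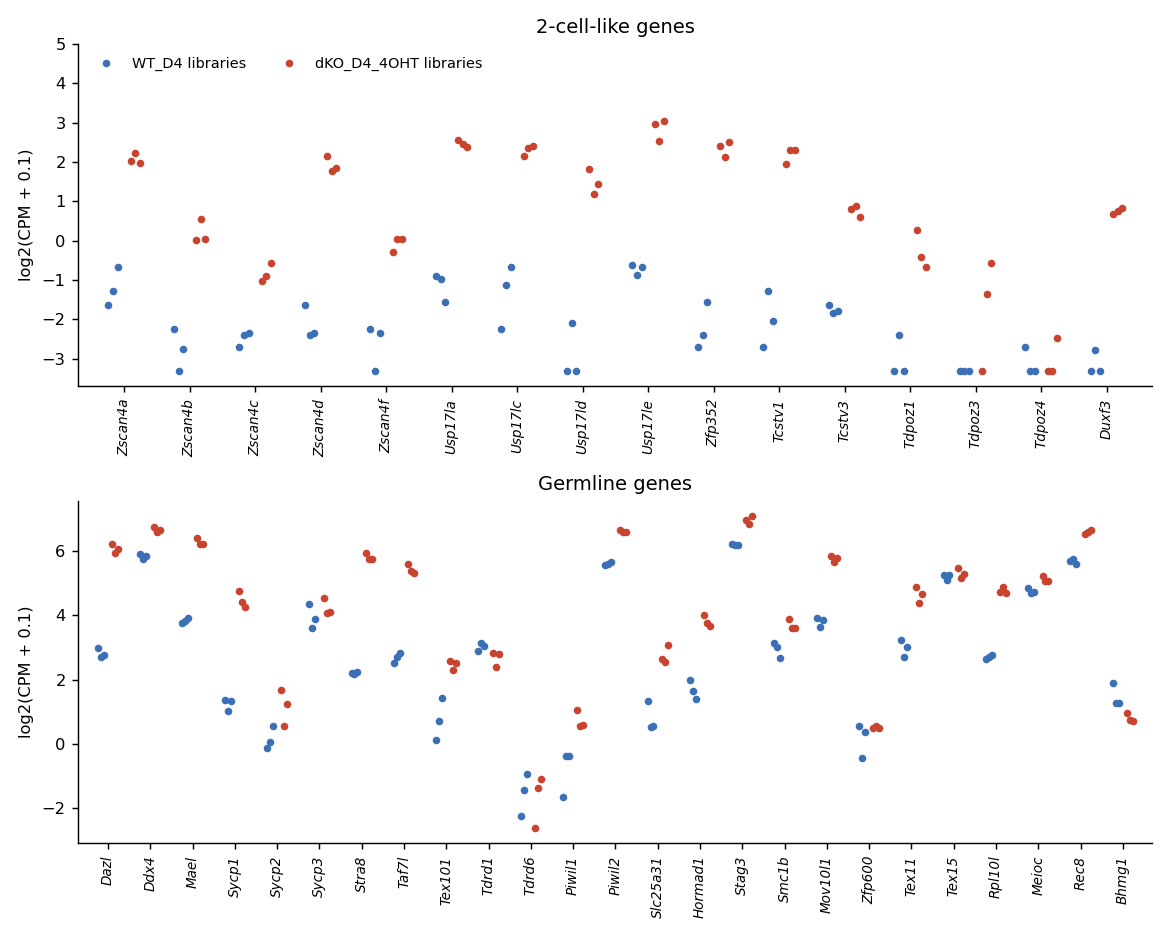
Level as log2(CPM + 0.1) of 16 2-cell-like genes and 25 germline genes in the 3 WT (blue) and 3 double knockout (red) libraries, 1 point a library. The 2-cell-like genes start near the floor in WT, while germline genes start at measurable levels. In 18 of the 25 germline genes all red points are above all blue points, against 20.1% of all genes with a count.

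Promoters of the germline list were searched on both strands for CACGTG, the E-box letters read by MGA and MAX in the PCGF6 form of PRC1, and for GCGGGA, letters of an E2F6 site that read TCCCGC on the other strand; no match of one can hold a whole match of the other. Of 21 genes with a window, 12 (57.1%) had CACGTG in any of their windows, against 11.5% of all tested genes with a window. GCGGGA or TCCCGC was found for 12 of the 21 (57.1%), against 38.6%. Sycp1 (chr3:102936051-102936350, minus strand), with 1 match of each, and Taf7l (chrX:134476441-134476740, minus strand), with 1 CACGTG, are printed with matches in capitals.
Sycp1: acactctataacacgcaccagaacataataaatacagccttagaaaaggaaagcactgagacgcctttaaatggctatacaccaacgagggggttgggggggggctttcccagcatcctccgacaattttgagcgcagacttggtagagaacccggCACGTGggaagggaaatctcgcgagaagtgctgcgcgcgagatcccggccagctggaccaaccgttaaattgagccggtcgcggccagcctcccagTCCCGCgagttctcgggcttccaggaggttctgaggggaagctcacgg
Taf7l: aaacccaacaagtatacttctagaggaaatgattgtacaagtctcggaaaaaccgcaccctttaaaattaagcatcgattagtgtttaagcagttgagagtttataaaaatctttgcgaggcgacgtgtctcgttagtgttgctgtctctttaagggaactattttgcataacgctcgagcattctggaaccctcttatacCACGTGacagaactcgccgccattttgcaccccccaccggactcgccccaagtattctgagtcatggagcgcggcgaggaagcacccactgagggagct
The windows of Dazl and Stra8 held neither motif. A match is a description of letters and not a bound site.

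Most neural transcription factor genes were higher. Of 59 found, 41 (69.5%) had all double knockout libraries above all WT libraries and 4 below, against 20.1% and 18.8% of all genes with a count. Of the 34 tested genes that passed without the double knockout libraries, 28 were higher, 22 of them at least 2-fold, and 4 lower, with a median of 1.16, where 25.5% of all such genes were higher and 27.7% lower. Zic1, a neural plate factor, stood at 0.220, 0.271 and 0.0953 CPM in WT and at 7.06, 5.99 and 6.91 CPM in the double knockout (log2 fold change 5.04, SE 0.32), and Pax3, of the dorsal neural tube and neural crest, went from 0.0550, 0.135 and 0.0477 to 3.66, 4.55 and 3.55 CPM (5.46, SE 0.47). Pou3f2 had 1 count in WT and 51 in the double knockout, a ratio of 58.3 (95% counting interval 10 to 2349). At 0.361 CPM or less in every library outside the double knockout, Pou3f2 passed the filter only through that group and so had to differ. The list was not uniform. Olig1, of the oligodendrocyte lineage, was the most abundant of the lower ones, at 81.0, 81.1 and 76.7 CPM in WT and 33.9, 38.9 and 34.0 CPM in the double knockout (-1.17), and Phox2a (-1.22), Pax8 (-0.87) and Lhx9 (-0.93) were lower as well. The summed level of the list was 222 to 229 CPM in WT and 282 to 289 CPM in the double knockout. Of the 30 neural genes with a promoter window, 26 (86.7%) were CpG-rich.

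Mesoderm factors went in both directions. Of 45 found, 22 (48.9%) had all double knockout libraries above all WT libraries and 2 below, against 20.1% and 18.8% of all genes with a count. Of the 30 tested genes that passed without the double knockout libraries, 17 were higher, 15 of them at least 2-fold, and 4 lower (median 0.91), against the same 25.5% and 27.7%. The highest were the homeobox genes Alx4 (3.54), Pitx1 (3.09), Alx1 (2.62) and Msx1 (2.22). T, the brachyury gene of the primitive streak, was not called (0.02), and Eomes (-0.40), Hand1 (-0.38), Prrx2 (-0.47) and Cdx4 (-1.32) were lower.

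Endoderm and trophoblast genes also went in both directions. Of 22 endoderm genes tested, 6 were higher and 7 lower, near the 26.2% and 27.1% of all tested genes. Of 19 trophoblast genes, 4 were higher and 13 lower (median -0.38). Foxa1, a pioneer factor of gut endoderm, stood at 0.330, 0.316 and 0.238 CPM in WT and at 4.84, 5.13 and 4.70 CPM in the double knockout (4.02, SE 0.28), and Gata6 (1.5) and Gata4 (1.33) were also higher. By contrast Sparc (-0.59) and Lamb1 (-0.45), matrix genes made by primitive endoderm, were lower. Among trophoblast genes Tfap2a was higher (2.75), and the placental gene Plac1 (-2.67) and the keratins Krt18 (-0.67) and Krt19 (-0.91) were lower.

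Fibroblast markers, which feeder cells would bring, moved with these lineage genes. Of 10 listed, 9 were tested, 7 higher and 1 lower (Thy1, -0.80), against 26.2% and 27.1% of all tested genes. In 7 the double knockout lay above all 9 untreated libraries, against 12.8% of all tested genes. The 10 together went from 53.7 to 55.6 CPM in WT to 97.6 to 99.1 CPM in the double knockout. Col3a1 went from 0.660, 0.587 and 0.810 to 3.92, 4.04 and 4.17 CPM (2.55), and Pdgfrb (1.38), Col1a2 (1.23) and Col1a1 (1.21) were higher. Lum, the listed marker too low to be tested, had no count in any double knockout library and at most 0.0903 CPM in WT. The part of other cell types in these results was not tested, and more cells of a type cannot be told apart from more RNA per cell. Acta2, smooth muscle actin, rose from 6.76, 6.77 and 6.86 to 47.4, 49.5 and 50.3 CPM (2.85), while Tagln, another smooth muscle gene, was not called (0.03).

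Genes of the naive pluripotency network, which holds stem cells in the ground state, were mostly higher. Of 20 tested, 14 were higher, 4 of them at least 2-fold, 1 was lower and 5 were not called (median 0.57), against 26.2% of all tested genes higher and 27.1% lower. Klf4, a core factor of the naive state, stood at 100, 105 and 111 CPM in WT and at 349, 355 and 359 CPM in the double knockout (log2 fold change 1.75, SE 0.05, adjusted p = 1.2e-29). Nanog stood at 204, 201 and 203 CPM in WT and at 378, 368 and 367 CPM in the double knockout (0.87). Both genes separated the groups completely, and both were above all 9 untreated libraries, though WT was the lowest of the untreated lines. Of the 20 genes, 5 lay above all 9 untreated libraries and 1 below, against 12.8% of all tested genes either way. Tbx3 went from 74.6, 80.3 and 77.5 to 201, 201 and 211 CPM (1.40), Prdm14 changed by 1.40, Tcl1 by 1.30, Nr0b1 by 0.82, Gbx2 by 0.73 and Esrrb by 0.51. Prdm14 and Esrrb did not leave the untreated range, with means of 34.5 and 752 CPM in the untreated conditional knockout line. Their double knockout means were 32.6 and 764 CPM. Dppa3, a maternal and germ cell factor, was the one faller (-1.08). Zfp42 (on chromosome 8), Stat3 and Klf5 were not called.

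Several factors of the later, formative state rose alongside the naive ones, among them Lef1 (2.29), Cdh2 (1.44), Sox3 (1.42), Fgf8 (1.29), Foxd3 (1.11) and Zic2 (1.01). Lef1 lay above all 9 untreated libraries, with means of 15.7 CPM in the double knockout and 11.3 CPM in the untreated conditional knockout line. Fgf8 did not leave the untreated range. Of 17 formative genes tested, 9 were higher and 6 lower, against 26.2% and 27.1% of all tested genes. The summed level of the 18 formative genes found was lower, at 1624 to 1756 CPM in WT and 1154 to 1252 CPM in the double knockout. Dnmt3b, the de novo DNA methyltransferase typical of that state, was lower, from 405, 427 and 445 CPM in WT to 187, 206 and 186 CPM (-1.14), with 204 CPM on average in the untreated conditional knockout line. Otx2 (-0.60) was lower too. After loss of BAP1 alone, 4 of the 20 naive genes were higher and 15 lower (median -0.31), against 31.3% and 30.3% of all tested genes. The difference of effects was positive for 16 and negative for 1, against 29.7% and 29.3%. Klf4 changed by -0.69 after loss of BAP1 alone, a difference of 2.44, while Tbx3 rose by 1.40 in both (difference 0.00, adjusted p = 0.98).

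Polycomb genes themselves changed unevenly. In PRC1, Bmi1, which encodes PCGF4, was the largest change of the PCGF subunits, from 2.80, 2.57 and 2.19 CPM in WT to 8.63, 8.16 and 8.99 CPM (log2 fold change 1.78). Pcgf2 (0.44) and Pcgf3 (0.20) were higher and Pcgf1 (-0.42), Pcgf5 (-0.21) and Pcgf6 (-0.40) lower, the call of Pcgf1 being lost at equal depth (adjusted p = 0.052). Of 20 accessory PRC1 genes, 10 were higher and 1 lower, among them Scml2 (2.15), Cbx8 (1.73) and Bcorl1 (1.34). Phc1 was the lower one (-0.10). In PRC2, Phf19, an accessory subunit that binds methylated H3, went from 26.9, 29.7 and 31.8 to 10, 10.3 and 9.68 CPM (-1.57), and Rbbp7 (-0.53), Ezh1 (-0.31), Ezh2 (-0.17) and Rbbp4 (-0.13) were lower. Epop (0.94), Mtf2 (0.59), Jarid2 (0.55) and Aebp2 (0.26) were higher, and Eed, Suz12 and Phf1 were not called. Of 18 genes of BAP1 complexes and other H2A deubiquitinases, 6 were higher, led by Asxl3 (1.44), and 6 lower, led by Usp46 (-0.64). Beside the counts of this paragraph stand 26.2% higher and 27.1% lower among all tested genes.

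Among the cyclin-dependent kinase inhibitors, the locus of Cdkn2a and Cdkn2b, a known Polycomb target, was higher. Cdkn2a stood at 5.99, 6.27 and 7.48 CPM in WT and at 25.8, 27.2 and 23.2 CPM in the double knockout (log2 fold change 1.93, SE 0.10, adjusted p = 4.5e-20). Cdkn2b went from 3.63, 2.89 and 2.91 to 11.1, 8.59 and 9.52 CPM (1.64). In both genes the groups did not overlap. Cdkn1a, a p53 target, was higher by 0.49, and Cdkn1b went down from 74.9, 71.0 and 68.5 to 48.3, 49.1 and 47.6 CPM (-0.57), where loss of BAP1 alone raised it by 0.95 (difference -1.52).

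The anti-apoptotic genes Bcl2 and Mcl1 differed between the double knockout and loss of BAP1 alone. Bcl2, the founding anti-apoptotic gene, stood at 682, 773 and 935 CPM in WT and at 893, 984 and 876 CPM in the double knockout. The groups overlapped and Bcl2 was not called (log2 fold change 0.20, SE 0.19, adjusted p = 0.38), although it was called in the fit restricted to the contrast's own libraries (0.21, adjusted p = 0.0063) and in the fit with no filter on low counts (0.19, adjusted p = 4.9e-05). In the conditional knockout it went from 861 CPM to 4.53 CPM on average, and the difference of effects was 7.70 (SE 0.39, adjusted p = 2.8e-20), the largest positive value by the rule for named genes. Mcl1, a second anti-apoptotic gene, stood at 1241, 1245 and 1393 CPM in WT and at 1643, 1631 and 1549 CPM in the double knockout, above all 9 untreated libraries (0.31, SE 0.04, adjusted p = 9.7e-09). It was lower by 1.43 after loss of BAP1 alone, and the difference was 1.74.

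**Figure D4:**
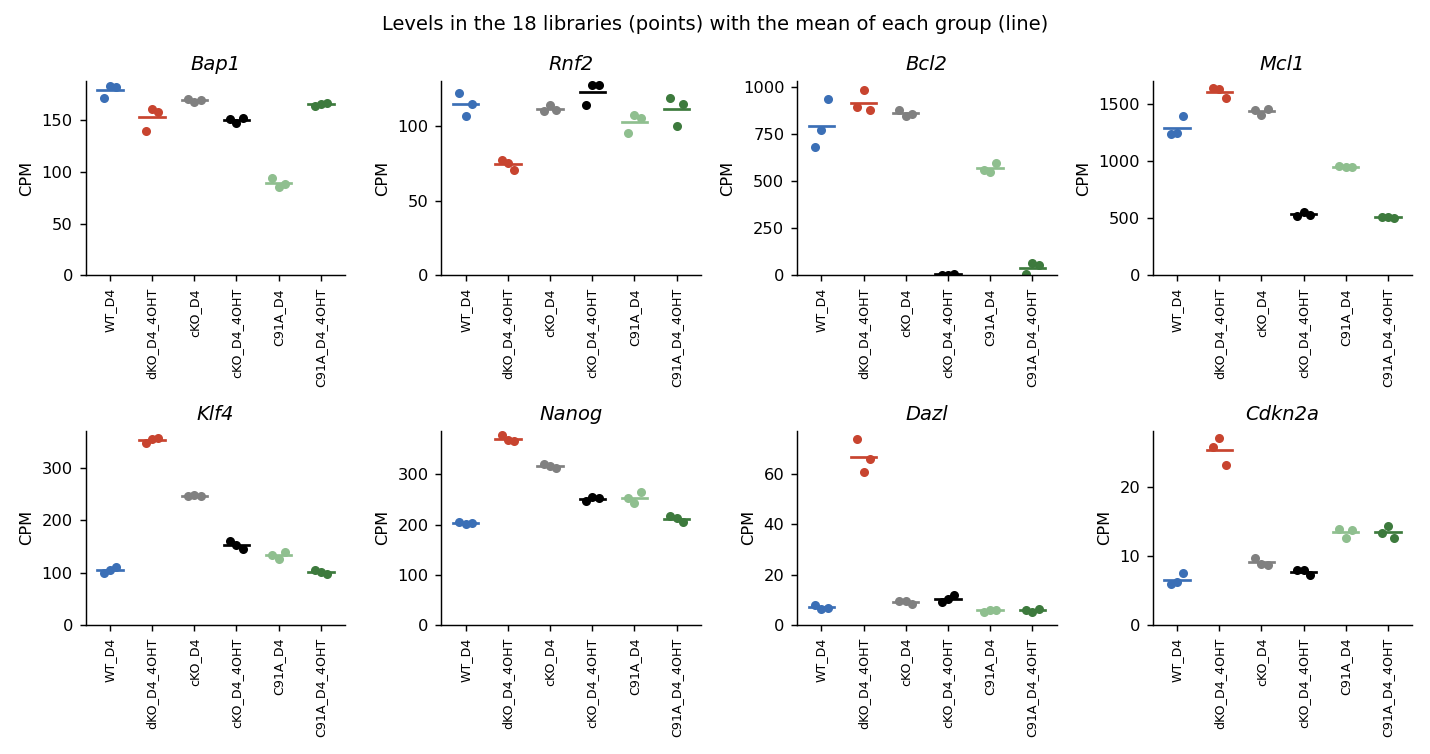
CPM of 8 genes in all 18 libraries, 1 point a library with a line at each group mean, the 6 groups side by side. Bcl2 and Mcl1 of the double knockout sit at or above WT while the conditional knockout with 4-OHT sits far below, and Klf4, Nanog, Dazl and Cdkn2a are highest in the double knockout.

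Other apoptosis genes changed by small amounts in both directions. Bcl2l1 (0.21) was higher and Bcl2l2 (-0.24) lower, and for these 2 anti-apoptotic genes the difference of effects was negative, at -0.42 and -0.49, since they were higher by 0.63 and 0.25 after loss of BAP1 alone. Of 11 pro-apoptotic genes, Hrk (0.74), Pmaip1 (0.45), Bax (0.28), Bbc3 (0.21) and Bcl2l11 (0.17) were higher, Bok (-0.67), Bik (-0.67), Bak1 (-0.21) and Bmf (-0.20) lower, and Bid (-0.05) and Bad (-0.19) not called. At equal depth Bcl2l2, Bcl2l11 and Bmf lost their calls. Bcl2l11 also lost it without WT replicate 1 (0.15, adjusted p = 0.062), WT replicate 2 (0.12, adjusted p = 0.12) or double knockout replicate 3 (0.13, adjusted p = 0.10), and Bmf without the same libraries (-0.17, -0.18 and -0.17). Among 22 caspase and death receptor genes, 3 were higher and 11 lower, against 26.2% and 27.1% of all tested genes. The largest loss was of Mlkl (-1.48), which executes necroptosis and lies on chromosome 8. Without the 4 genes of that chromosome, 3 were higher and 7 lower, against 27.0% and 25.6% of tested genes off it. Fas, a death receptor and p53 target, was higher (1.21).

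Of 30 p53 targets, 23 were higher and 5 lower, with 2 at least 2-fold higher, Cd80 (1.40) and Fas; over all tested genes 26.2% were higher and 27.1% lower. Plk2 (0.68) and Eda2r (0.59) were among the others, and Ddit4 (-0.55), Ddb2 (-0.53), Fdxr (-0.51), Perp (-0.31) and Xpc (-0.16) were lower. The median change was 0.28.

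Signalling genes of the early embryo changed member by member. For the counts that follow, 26.2% of all tested genes were higher and 27.1% lower. In the WNT list, 10 of 24 were higher and 5 lower: Wnt5a (1.62) and the feedback inhibitor gene Notum (1.61) rose, and Wnt3a was lower (-1.83), a call lost at equal depth (-1.14, adjusted p = 0.17). Of 26 TGF-beta and BMP genes, 12 were higher and 6 lower, led by Tgfb2 (2.25), the activin antagonist gene Fst (1.46) and Inhbb, an activin subunit (1.34). Of 23 MAPK feedback genes, 6 were higher and 11 lower. The phosphatase gene Dusp4 went from 93.9, 95.5 and 96.5 to 30.5, 33.3 and 32.2 CPM, and Junb was lower by 0.92, both on chromosome 8, while Dusp5 (-0.73) and Spry1 (-0.67) lie elsewhere. Among 28 collagen, laminin and integrin genes, 13 were higher and 14 lower, with Col4a6 (1.86), Col4a5 (1.51) and Col5a2 (1.45) the largest gains.

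Imprinted genes split without a common direction: of 31, 12 were higher and 10 lower, against 26.2% and 27.1% of all tested genes. Beside Nnat, Magel2 (1.70), Dlk1 (1.66) and Plagl1 (1.63) were the highest, and beside H19, Rian (-1.49) and Phlda2 (-1.01) the lowest. Igf2, the neighbour of H19, was not called (0.00). Of 13 DNA methylation genes, 3 were higher and 5 lower, beside the same shares. Tet3 (0.84) and Tet2 (0.75), which oxidise methylcytosine, were higher, and Dnmt3a (-0.46) was lower with Dnmt3b.

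Genes of cholesterol synthesis were lower almost throughout. Of 24 tested, 21 were lower, 4 of them at least 2-fold, 1 was higher and 2 were not called (median -0.73), against 27.1% of tested genes lower. Of the 24, 21 had every double knockout library below all 9 untreated libraries, against 12.8% of all tested genes. Lss, which closes the sterol rings, went from 190, 192 and 171 to 80.4, 92.4 and 91.8 CPM (-1.06). The groups did not overlap, and Fdps (-1.16) and Insig1 (-0.89) were lower too. Mvd had the largest change, from 253, 272 and 233 to 83.0, 99.1 and 90.8 CPM (-1.48), and lies on chromosome 8; without the genes of that chromosome, 19 of 22 were lower (median -0.65). Mvk was the one riser (0.23), and Idi1 and Ebp were not called. The summed level went from 3813 to 4049 CPM in WT to 2451 to 2593 CPM. After loss of BAP1 alone 12 of the 24 were lower and 4 higher (median -0.21), against 30.3% and 31.3% of all tested genes. The difference of effects was negative for 17 and positive for 3, against 29.3% and 29.7%.

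Growth and housekeeping lists were lower by less. For each count in this paragraph, 26.2% of all tested genes were higher and 27.1% lower. Of 48 ribosomal protein genes, 33 were lower and 15 were not called (median -0.28), with Rps12 (-0.58) and Rpl22 (-0.50) at the lower end. Loss of BAP1 alone had 41 of these genes higher (median 0.44), against 31.3% of all tested genes. The difference of effects was negative for 44, against 29.3%. Of 28 glycolysis and hypoxia genes, 19 were lower and 4 higher (median -0.31). Of 27 replication genes, 14 were lower and 13 were not called, with Cdc6 at -0.52 and Cdt1, on chromosome 8, at -0.54. Of 25 mitosis genes, 18 were lower, Aurkb among them (-0.49), and 2 higher, one being Birc5 (0.97), for which WT was again the lowest line. Immune lists showed no common rise: of 23 interferon-stimulated genes 5 were higher, such as Rsad2 (1.27), and 8 lower, such as Ddx58 (-1.10), and of 13 class I histocompatibility genes 2 were higher and 7 lower.

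Over all genes, the effect in the double knockout was also set against that of loss of BAP1 alone. The difference of effects passed the test for 9955 genes (59.0%), 5004 (29.7%) positive and 4951 (29.3%) negative, and exceeded 2-fold for 2251 (13.3%) and 955 (5.66%). After loss of BAP1 alone, 812 genes (4.81%) were at least 2-fold higher and 1771 (10.5%) lower. Of the 474 genes at least 2-fold lower in the double knockout, 160 were also at least 2-fold lower after loss of BAP1 alone, 33.8% of the first list and 9.03% of the second, and 30 went the opposite way. Of the 1079 higher genes, 221 were higher in both, 20.5% and 27.2% of the lists, and 175 went the opposite way. Under the C91A mutant against its untreated line, 4828 genes (28.6%) were higher and 4452 (26.4%) lower, of which 793 (4.7%) and 1073 (6.36%) by at least 2-fold. The overlaps were 182 for higher genes (16.9% and 23%) and 112 for lower genes (23.6% and 10.4%), with 127 and 28 going the opposite way. These contrasts share no library with the double knockout and WT.

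Single genes with little difference between the 2 effects were Acap1, lower by 2.33 after loss of BAP1 alone (difference -0.06, SE 0.60, adjusted p = 0.94), and Dll3, lower by 2.04 (difference -0.06). Acap1 averaged 9.74 CPM in WT and 1.80 CPM in the double knockout, near the 2.16 CPM of the untreated conditional knockout line. After loss of BAP1 alone it averaged 0.437 CPM. At the other end, Inhbb stood at 15.1, 14.4 and 17.8 CPM in WT and at 39.5, 41.7 and 38.3 CPM in the double knockout, but went from 39.2 to 2.18 CPM on average after loss of BAP1 alone. Myl3 was lower in the double knockout and higher by 1.18 after loss of BAP1 alone. Lpl, a lipoprotein lipase gene on chromosome 8, went from 14.2, 12.1 and 12.4 to 5.03, 5.42 and 3.55 CPM (-1.51) and was higher by 2.02 after loss of BAP1 alone.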

How the data were processed

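Total RNA was made into poly(A) libraries with the TruSeq RNA kit v2, which marks no strand, and sequenced as single-end 50 base reads, per the labels' protocols. The submitters' processing notes name GSNAP, without a version, and the build GRCm38. The deposited files hold, for each Entrez gene, the number of reads uniquely aligning to its model, and this count was used for all tests; its strand setting was not given in the sources used here. The files also hold size-factor-adjusted RPKM values computed by the authors, which were not used in any test.

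Symbols and coordinates came from RefSeq GRCm38.p6. Genes were kept by filterByExpr, scaled by TMM and tested with edgeR 4.0.16 (limma 3.58.1, R 4.3.3) in a quasi-likelihood fit of all 18 libraries with 1 mean a group; calls used a Benjamini-Hochberg adjusted p under 0.05. CPM values are counts over the library total of the genes kept, multiplied by the library's TMM factor. These factors were 0.996 to 1.01 in WT and 1.06 to 1.08 in the double knockout. Counts of replicates varied with a common dispersion of 0.002 (coefficient of variation 4.47%). Replicates were unnumbered and were not paired, and no pair agreed within sampling noise. Named genes were Bap1, Rnf2, Ring1, the BCL2 family, the 10 highest and 10 lowest called genes whose groups did not overlap and whose log2 CPM averaged 2 or more, the 3 highest and 3 lowest of the difference of effects, and up to 4 largest called members of each list; other members were named after their values were seen, to complete a list's account. Members and lists were chosen with earlier results of these data known. Alternatives were RLE scaling, DESeq2 1.42.0, no filter, only the contrast's libraries, equal depth (8106613 counts a library) and leaving out each library. The fit was tested on simulated data. Some genes are not reported here.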

Additional observations from a re-analysis of the deposited data

Results flagged for a closer look

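For 6 genes, chosen by rule as the 3 highest and 3 lowest, the effect in the double knockout (minus WT) and the effect of loss of BAP1 alone (minus its untreated line) differed when the difference itself was tested in the same fit. The log2 differences were 7.70 for Bcl2, 5.61 for Calcoco2 and 5.45 for Inhbb, and -4.62 for Myl3, -3.81 for Lhx9 and -3.54 for Lpl. Lhx9, a LIM homeobox gene, stood at 1.54, 1.53 and 2.38 CPM in WT and at 0.785, 1.23 and 0.899 CPM in the double knockout and was higher by 2.88 on the log2 scale after loss of BAP1 alone. Calcoco2 was higher in the double knockout and was lower by 1.09 after loss of BAP1 alone. The 2 effects come from different lines, and line, drug, recombinase and genotype cannot be told apart in their difference.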

How the results depend on the processing

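The counts of genes higher and lower stayed within 1.5 times their values under every alternative run. Leaving out each library in turn gave 3914 to 4183 genes higher and 4077 to 4311 lower, and at least 2-fold 1083 to 1155 higher and 447 to 510 lower. At equal depth the counts were 3038 and 3210, and 773 and 391 at least 2-fold; the count of higher genes that also lay above all 9 untreated libraries moved from 774 to 488, with fewer reads and fewer genes past the test by construction. With no filter 1349 genes were at least 2-fold higher. Of 165 named genes, 148 kept their side of the threshold in every alternative run (up to 11 each). Those that lost their call in at least 1, 14 in all, were Ddx3y, Pcgf1, Bcl2l2, Bcl2l11, Bmf, Apob, Elf5, Usp18, Irf7, Nlrc5, Psmb9, Car9, Wnt3a and Bmp2. Bcl2 and Bad gained one. Bid, not called, reversed at equal depth (0.047 from -0.05); the cause was not tested. No paired analysis was possible because the labels give the libraries no replicate numbers; the numbers used here follow accession order and only name a library. Depth limits genes under about 3 counts a library, which include several HOX and 2-cell-like genes in WT.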

Other observations

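Other gene families, chosen after their values were seen, are given as values over the members that passed the filter without the double knockout libraries; over all such genes 25.5% were higher and 27.7% lower. Of 11 tested Pramel genes, a family of the early embryo and germline with many near-identical copies, 7 passed only through the double knockout, and of the other 4, 3 were higher (median log2 fold change 0.73). Dmrt genes, which act in sex determination, were higher for 4 of 6 and lower for 1. Nkx homeobox genes were higher for 4 of 7 and lower for 1, Tbx genes for 7 of 12 and 1, and Irx genes, 1 antisense transcript and some members on chromosome 8 included, for 4 of 6 and 1. Core histone genes were higher for 6 of 7. Of 36 clustered protocadherins, 2 were called, both higher (median 0.10), while 17 had every double knockout library above all 9 untreated libraries, against 12.8% of all tested genes. Claudin genes were lower for 6 of 12 and higher for 2.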
